A study of Homo sapiens with 12 samples.

Results

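The FOS and JUN subunits of the transcription factor AP-1 were followed in human breast cancer cells with a GLI2 knockout or wild-type label and with or without paclitaxel. The members were the rows of the deposited count table named FOS, FOSB, FOSL1, FOSL2, JUN, JUNB and JUND, which made 7 of 25049 genes, and 7 of 7 passed the filter on low counts that left 21974 genes tested. The cells were MDA-MB-231b, a bone-tropic derivative of the established triple-negative line MDA-MB-231, obtained by repeated recovery of the cells from the marrow of athymic nude mice. Polyadenylated RNA was sequenced from 4 groups of 3 samples: GLI2 KO with paclitaxel, GLI2 KO with DMSO, WT with paclitaxel and WT with DMSO. Paclitaxel, a taxane that stabilises microtubules, was given at 50 nM for 2 days, and DMSO, its solvent, for the same time. The knockout was made by lentiviral CRISPR-Cas9 with a guide against GLI2, a transcription factor of the Hedgehog pathway. Its counterpart in the design text received a guide with no target, and in the labels that genotype is WT. The labels do not say whether each genotype was a clone or a pool, or whether replicates were separate cultures. P-values therefore cover the spread among these 12 samples and nothing wider, and that spread may be technical.

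AP-1 is a family of dimers built from basic leucine zipper proteins. JUN proteins pair with each other or with FOS proteins, whereas FOS proteins need a JUN partner, and the dimers bind the TPA response element. FOS, FOSB, JUN and JUNB are classical immediate early genes, switched on within minutes of growth factor or stress signals through MAP kinases, serum response factor and CREB/ATF proteins, while FOSL1 and FOSL2 (encoding FRA1 and FRA2) are induced later and FOSL1 is well known as an abundant AP-1 member in mesenchymal triple-negative breast cancer cells. FOS, FOSB and JUN are strong activators, JUNB and JUND are weaker ones that can restrain JUN, and FOSB also gives a shorter splice form, ΔFosB, which gene-level counts cannot separate.

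The start regions of FOS, FOSB, JUNB and JUN, the members with the largest rises with paclitaxel in either genotype, are shown with short elements marked. Sequences are from RefSeq on GRCh38.p14, from 250 bases before to 50 bases after the annotated start, and 6 of 7 members matched an entry. Each is printed 5′ to 3′ on the gene's strand. Capitals mark matches to TGACG (the core of the CREB/ATF element), TATAAA (the TATA box) and TGACATCA (the variant AP-1 site of the JUN promoter).
FOS: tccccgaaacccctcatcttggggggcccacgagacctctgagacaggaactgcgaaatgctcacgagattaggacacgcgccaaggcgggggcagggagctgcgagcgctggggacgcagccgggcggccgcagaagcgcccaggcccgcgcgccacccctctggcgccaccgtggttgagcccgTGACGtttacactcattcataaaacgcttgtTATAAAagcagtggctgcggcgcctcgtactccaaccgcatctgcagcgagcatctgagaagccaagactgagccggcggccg
FOSB: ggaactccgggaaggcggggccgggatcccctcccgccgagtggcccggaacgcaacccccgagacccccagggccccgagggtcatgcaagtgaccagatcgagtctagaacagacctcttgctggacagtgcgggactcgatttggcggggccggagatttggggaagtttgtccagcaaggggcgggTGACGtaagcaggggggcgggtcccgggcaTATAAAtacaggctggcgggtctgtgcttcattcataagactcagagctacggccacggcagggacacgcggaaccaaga
JUNB: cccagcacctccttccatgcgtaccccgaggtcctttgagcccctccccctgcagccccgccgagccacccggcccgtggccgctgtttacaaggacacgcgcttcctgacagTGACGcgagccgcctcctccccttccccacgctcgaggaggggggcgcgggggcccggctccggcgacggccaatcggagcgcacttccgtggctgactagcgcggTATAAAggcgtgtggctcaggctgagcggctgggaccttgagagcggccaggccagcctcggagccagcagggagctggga
JUN: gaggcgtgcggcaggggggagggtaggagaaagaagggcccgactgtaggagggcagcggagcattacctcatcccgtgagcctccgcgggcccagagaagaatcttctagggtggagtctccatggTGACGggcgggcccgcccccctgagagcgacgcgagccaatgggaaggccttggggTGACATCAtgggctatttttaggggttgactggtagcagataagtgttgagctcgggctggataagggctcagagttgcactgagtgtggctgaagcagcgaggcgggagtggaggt
The FOS region lies at chr14:75278578-75278877 on the plus strand and holds TGACG 64 bases and TATAAA 33 bases before the start. The FOSB region, chr19:45467746-45468045 on the plus strand, has them 60 and 30 bases before its start. In JUNB, chr19:12791236-12791535 on the plus strand, they begin 137 and 31 bases before the start. The JUN region, chr1:58783998-58784297 on the minus strand, has TGACATCA 67 bases and TGACG 123 bases before the start and no TATAAA in the window. Both strands were searched for 5 motifs. TATAAA was in 3 of the 6 regions (FOS, FOSB and JUNB), against 11.5% of 35116 promoters, and TGACG was in 6 of 6, against 24.6%. TGACGTCA, the full CREB element, which itself contains TGACG, was in the JUND region alone (1.85% of promoters), TGACATCA in that of JUN alone (2.61%), and TGACTCA, the consensus AP-1 site, in that of FOSL2 alone (4.95%), 4 bases after the start. A match describes letters, not binding. TGACG was also in the regions of JUND, which fell with paclitaxel, and FOSL2, which changed little, so it does not mark the members that rose most.

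Library totals ran from 83230948 to 109018776 counts. Levels are given as CPM, counts relative to the library total after scaling by TMM factors. GLI2 transcript was still counted in the knockout, at 3.97, 4.14 and 4.39 CPM in GLI2 KO with paclitaxel against 6.42, 5.65 and 4.97 in WT with paclitaxel, and at 9.28, 8.23 and 10.1 CPM in GLI2 KO with DMSO against 10.4, 11.4 and 10.6 in WT with DMSO. A guide cut need not remove the transcript, so this level does not check the protein. The 5 listed markers of MDA-MB-231 cells were present in every library, with a summed level of 3136 to 3420 CPM in GLI2 KO with paclitaxel, 4055 to 4307 in GLI2 KO with DMSO, 3520 to 3571 in WT with paclitaxel and 4145 to 4190 in WT with DMSO. Hormone receptor and luminal markers (4 of 5 in the table) summed to 70.1 to 70.9 CPM in GLI2 KO with paclitaxel, 74.7 to 79.4 in GLI2 KO with DMSO, 68.3 to 69.6 in WT with paclitaxel and 79.0 to 80.2 in WT with DMSO, mostly ERBB2. The progesterone receptor gene PGR averaged 0.836 CPM in GLI2 KO with paclitaxel and 2.48 in GLI2 KO with DMSO, against 0.00706 in WT with paclitaxel and 0.00376 in WT with DMSO. Haematopoietic markers (3 of 6 in the table) summed to 1.15 to 1.78 CPM with paclitaxel and 0.316 to 0.850 with DMSO. Endothelial markers (3 of 3) summed to 1.30 to 1.87 and 0.391 to 1.13, and fibroblast and osteoblast markers (3 of 6) to 9.18 to 12.3 and 5.96 to 8.38. The mitochondrial share of counts was 4.83% to 5.33% in the paclitaxel libraries and 3.99% to 4.69% in the DMSO libraries. The part of these markers and of this share in the results was not tested.

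Some libraries stood apart from their groups. The chi-square per degree of freedom between replicates over genes was 13.7 and 17.9 for GLI2 KO DMSO replicate 3 against the other 2 of its group, 11.4 and 8.44 for WT DMSO replicate 2, and 11.7 and 7.17 for GLI2 KO paclitaxel replicate 3, with 2.90 to 4.96 for the remaining pairs. GLI2 KO DMSO replicate 3 held the lowest level of its group for 7 of 7 members, and WT DMSO replicate 2 for 6 of 7. Values without these libraries are given beside the results whose call or direction they change. The libraries were picked after the data were seen, and leaving them out tends to narrow the spread. Calls gained in this way are therefore not support.

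Paclitaxel changed most of the AP-1 set. In GLI2 KO cells 4 members rose (FOS, FOSB, JUNB, FOSL2), 2 fell (FOSL1, JUND) and JUN did not pass. In WT cells 5 rose, JUN among them, and the same 2 fell. The immediate early members FOS, FOSB and JUNB had the largest rises, from 2.16-fold to 8.85-fold. Passing means an adjusted p below 0.05 in edgeR's quasi-likelihood test over all tested genes, and this was common across the transcriptome: 65.2% of tested genes passed with paclitaxel in GLI2 KO cells (33.0% higher, 32.2% lower) and 66.7% in WT cells (34.6% higher, 32.1% lower). A count of 6 or 7 of 7 is therefore not far above the background, and the sizes carry more than the count. The median log2 fold change of the 7 members was 0.26 in GLI2 KO and 0.85 in WT cells, against 0.02 and 0.03 over all tested genes. These are bulk RNA samples, in which fewer cells with a transcript and less of it per cell cannot be told apart.

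**Figure D1:**
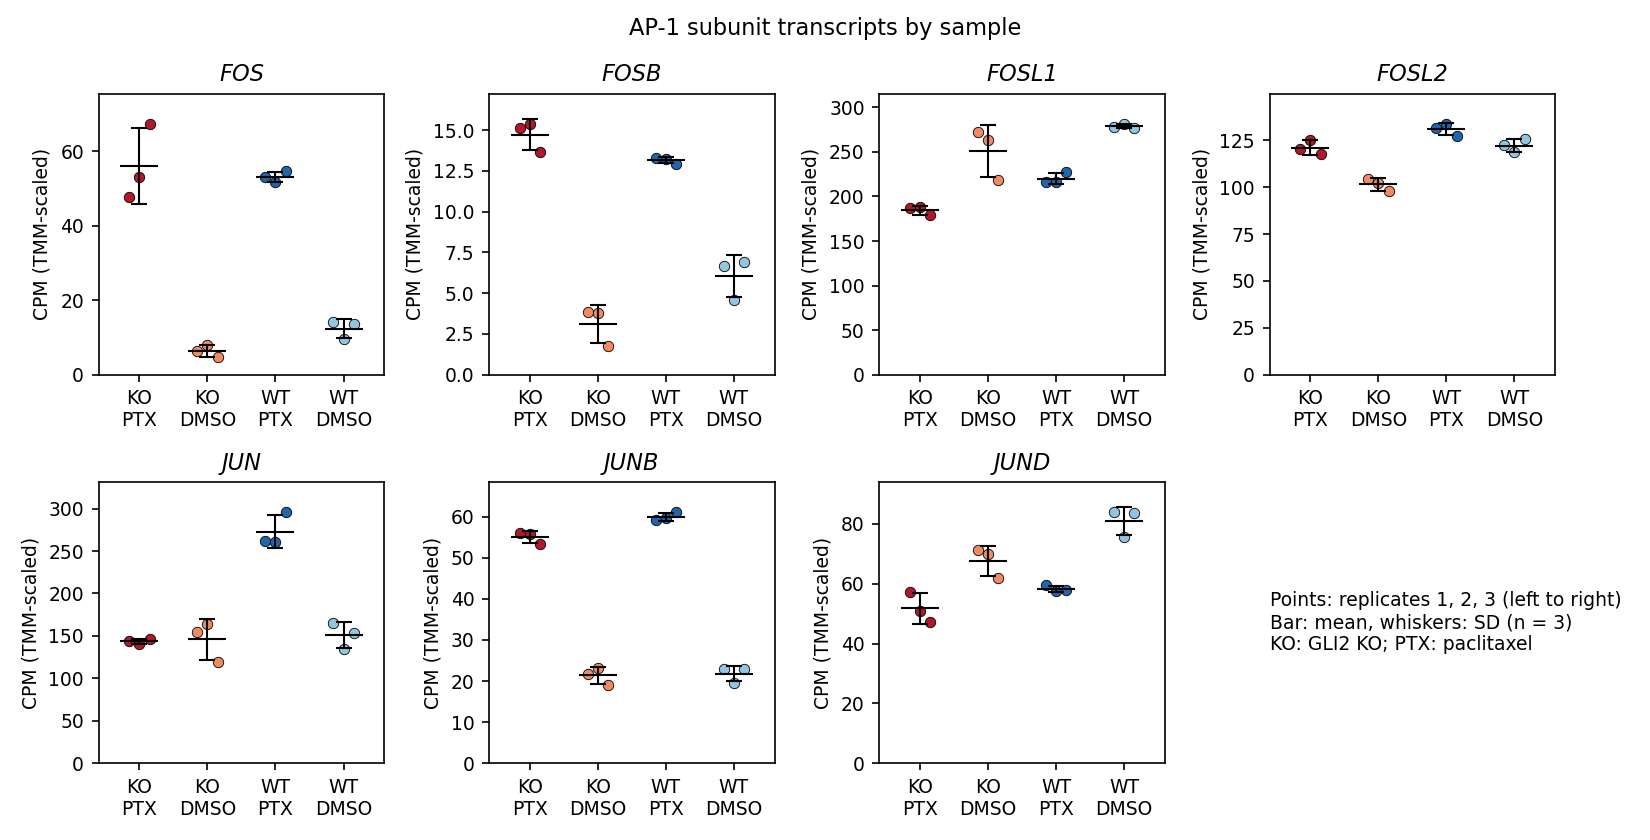
Levels of the 7 AP-1 subunit transcripts (vertical axes, TMM-scaled CPM) in each sample of the 4 groups (horizontal axes). Points are replicates, bars are means and whiskers are the SD of 3. FOS, FOSB and JUNB are higher with paclitaxel in both genotypes, FOSL1 and JUND are lower, and JUN is high only in the 3 WT paclitaxel samples, at 261 to 296 CPM.

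FOS (chr14:75278774-75282230, plus strand; ENSG00000170345), the founding immediate early subunit, had the largest response. It stood at 47.7, 53.2 and 67.5 CPM in GLI2 KO with paclitaxel, against 6.47, 7.97 and 4.64 CPM in GLI2 KO with DMSO. In WT it stood at 53.1, 51.9 and 54.7 CPM with paclitaxel, against 14.2, 9.47 and 13.5 CPM with DMSO. Every paclitaxel sample lay above every DMSO sample, and the paclitaxel samples of the genotypes overlapped. The log2 fold change was 3.14 ± 0.22 in GLI2 KO (edgeR adjusted p = 1.92e-06) and 2.10 ± 0.20 in WT cells (edgeR adjusted p = 1.75e-05), where ± on the log2 scale is an approximate standard error and each group has 3 samples. Without GLI2 KO DMSO replicate 3 and WT DMSO replicate 2 these were 2.95 and 1.94. With DMSO, FOS was lower in GLI2 KO than in WT cells (log2 fold change -0.97 ± 0.24, edgeR adjusted p = 0.0110), with no overlap, and with paclitaxel it was 0.08 ± 0.18 (edgeR adjusted p = 0.766, 95% interval -0.34 to 0.50), and -0.08 without GLI2 KO paclitaxel replicate 3. The baseline difference was -0.93 without those DMSO libraries.

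FOSB (chr19:45467995-45475179, plus strand; ENSG00000125740), the close relative of FOS, followed the same order of groups at lower counts. It reached 15.1, 15.4 and 13.6 CPM in GLI2 KO with paclitaxel, against 3.83, 3.75 and 1.76 CPM in GLI2 KO with DMSO. In WT it reached 13.3, 13.3 and 12.9 CPM with paclitaxel, against 6.66, 4.59 and 6.90 CPM with DMSO. The 4 groups did not overlap for FOSB, although the lowest GLI2 KO paclitaxel sample (13.6 CPM) lay close to the highest of WT (13.3 CPM). The paclitaxel effect was 2.25 ± 0.24 in GLI2 KO (edgeR adjusted p = 3.56e-05) and 1.11 ± 0.22 in WT cells (edgeR adjusted p = 0.00189). With DMSO it was lower in GLI2 KO than in WT cells (-0.98 ± 0.26, edgeR adjusted p = 0.0153). That baseline call was lost when only the groups compared were fitted (-0.97, edgeR adjusted p = 0.0838), without WT DMSO replicate 1 (-0.90, 0.0552) and without WT DMSO replicate 3 (-0.87, 0.0542). With paclitaxel the difference between genotypes was 0.16 ± 0.21 (edgeR adjusted p = 0.575), and 0.16 without the 2 DMSO libraries that stood apart (edgeR adjusted p = 0.0124).

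FOSL1 (chr11:65892049-65900573, minus strand; ENSG00000175592), which encodes FRA1, moved the other way. Its levels were 187, 188 and 179 CPM in GLI2 KO with paclitaxel, against 272, 263 and 218 CPM in GLI2 KO with DMSO. In WT they were 216, 217 and 228 CPM with paclitaxel, against 278, 282 and 277 CPM with DMSO. Within each genotype the paclitaxel samples lay below every DMSO sample, and the knockout with paclitaxel was lowest of all. FOSL1 fell in GLI2 KO (-0.45 ± 0.07, edgeR adjusted p = 1.03e-04) and in WT cells (-0.34 ± 0.07, edgeR adjusted p = 7.34e-04). It was lower in GLI2 KO than in WT cells with paclitaxel (-0.26 ± 0.07, edgeR adjusted p = 0.00815), a call lost without GLI2 KO paclitaxel replicate 3 (-0.23, edgeR adjusted p = 0.0517). With DMSO the groups did not overlap but the test was not passed (-0.15 ± 0.07, edgeR adjusted p = 0.0926), and the value was -0.05 without the 2 DMSO libraries that stood apart (edgeR adjusted p = 0.258). It did pass in DESeq2 (-0.16, adjusted p = 0.0153), in limma-voom (-0.16, 0.0217), with 4 other settings of edgeR (-0.18 to -0.15) and without GLI2 KO DMSO replicate 1 (-0.21, 0.00827).

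FOSL2 (chr2:28392448-28417312, plus strand; ENSG00000075426), which encodes FRA2, changed least of the members that passed. Its levels were 120.5, 125 and 118 CPM in GLI2 KO with paclitaxel, against 105, 102 and 97.8 CPM in GLI2 KO with DMSO. In WT they were 132, 134 and 127 CPM with paclitaxel, against 122, 119 and 126 CPM with DMSO. The replicates were tight enough for small shifts to pass: 0.26 ± 0.03 with paclitaxel in GLI2 KO (edgeR adjusted p = 2.96e-07) and 0.10 ± 0.03 in WT cells (edgeR adjusted p = 0.0107). The WT rise was lost without WT DMSO replicate 2 (0.07, edgeR adjusted p = 0.0857) or WT paclitaxel replicate 2 (0.08, 0.0718). FOSL2 was lower in GLI2 KO than in WT cells with paclitaxel (-0.11 ± 0.03, edgeR adjusted p = 0.00678) and more so with DMSO (-0.27 ± 0.03, edgeR adjusted p = 2.67e-07), and the groups did not overlap in either comparison.

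JUN (chr1:58780788-58784327, minus strand, 1 exon; ENSG00000177606), the main partner of FOS proteins, was high in a single group. It stood at 144, 141 and 146 CPM in GLI2 KO with paclitaxel, against 155, 165 and 119 CPM in GLI2 KO with DMSO. In WT it stood at 262, 261 and 296 CPM with paclitaxel, against 165, 134 and 154 CPM with DMSO. All 3 WT paclitaxel samples lay above the other 9, and those 9 overlapped across their 3 groups. JUN rose with paclitaxel in WT cells by 0.85 ± 0.12 (1.81-fold, edgeR adjusted p = 2.66e-04). In GLI2 KO cells the log2 fold change was -0.03 ± 0.12 (edgeR adjusted p = 0.870), with a 95% interval of -0.31 to 0.26; its sign turned to 0.10 with upper-quartile factors and to 0.15 with library totals. Without GLI2 KO DMSO replicate 3 and WT DMSO replicate 2 it became a fall of -0.16 (edgeR adjusted p = 0.0162), with 0.77 in WT cells. With paclitaxel, JUN was lower in GLI2 KO than in WT cells by -0.93 ± 0.12 (edgeR adjusted p = 2.72e-04), and with DMSO the difference was -0.05 ± 0.12 (edgeR adjusted p = 0.805), with a sign that turned without GLI2 KO DMSO replicate 3 (0.08).

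JUNB (chr19:12791496-12793315, plus strand, 1 exon; ENSG00000171223), an immediate early JUN protein, rose evenly. It stood at 56.1, 55.7 and 53.4 CPM in GLI2 KO with paclitaxel, against 21.7, 23.2 and 19.1 CPM in GLI2 KO with DMSO. In WT it stood at 59.2, 59.8 and 61.1 CPM with paclitaxel, against 22.9, 19.6 and 22.9 CPM with DMSO. The paclitaxel samples lay far above the DMSO samples in both genotypes. Its log2 fold change was 1.37 ± 0.06 in GLI2 KO (2.58-fold, edgeR adjusted p = 1.26e-11) and 1.46 ± 0.06 in WT cells (2.75-fold, edgeR adjusted p = 5.23e-12). Between genotypes it was -0.12 ± 0.06 with paclitaxel (edgeR adjusted p = 0.0983), without overlap, and -0.03 ± 0.07 with DMSO (edgeR adjusted p = 0.736; 0.04 without GLI2 KO DMSO replicate 3). The value with paclitaxel passed without the 2 DMSO libraries that stood apart (-0.12, edgeR adjusted p = 0.00204) and in limma-voom (-0.13, adjusted p = 0.0409). Of the JUNB exon bases 14.2% are shared with HOOK2 on the opposite strand, and the use of strand in counting is not stated. HOOK2 moved against JUNB, with 17.5, 17.8 and 17.4 CPM in GLI2 KO with paclitaxel against 20.7, 21.7 and 21.4 in GLI2 KO with DMSO, and 21.1, 19.7 and 18.7 CPM in WT with paclitaxel against 25.0, 25.7 and 25.8 in WT with DMSO.

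JUND (chr19:18279760-18281622, minus strand; ENSG00000130522), the constitutively expressed JUN protein, fell with paclitaxel. It stood at 57.3, 50.7 and 47.3 CPM in GLI2 KO with paclitaxel, against 71.1, 70.0 and 62.0 CPM in GLI2 KO with DMSO. In WT it stood at 59.5, 57.5 and 57.9 CPM with paclitaxel, against 84.0, 75.6 and 83.6 CPM with DMSO. The 4 groups were ordered without overlap, with WT DMSO highest and GLI2 KO paclitaxel lowest. The fall was -0.39 ± 0.07 in GLI2 KO (edgeR adjusted p = 5.89e-04) and -0.48 ± 0.07 in WT cells (edgeR adjusted p = 1.08e-04). JUND was also lower in GLI2 KO than in WT cells with DMSO (-0.26 ± 0.07, edgeR adjusted p = 0.0119; -0.23 and 0.0501 without WT DMSO replicate 1), and with paclitaxel the difference was -0.17 ± 0.07 (edgeR adjusted p = 0.0754). That difference passed in DESeq2 (-0.17, adjusted p = 0.0159), in limma-voom (-0.18, 0.0211), with 5 other settings of edgeR, without GLI2 KO paclitaxel replicate 1 (-0.25, 0.00213) and without the 2 DMSO libraries that stood apart (-0.17, 0.0116).

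Between genotypes, the members that passed were all lower in GLI2 KO than in WT cells. With paclitaxel 3 of 7 were lower (JUN, FOSL1, FOSL2) and 0 higher, against 22.2% and 23.4% of all tested genes (45.6% in either direction). With DMSO 4 of 7 were lower (FOS, FOSB, FOSL2, JUND) and 0 higher, against 19.6% and 22.0% (41.6% in either direction). FOSL2 was the member shared by both sets. The first count was 5, with JUNB and JUND added and FOSB counted as higher, without the 2 DMSO libraries that stood apart, and the second stayed at 4. Groups did not overlap for 6 of 7 members with paclitaxel against DMSO in GLI2 KO cells, 7 of 7 in WT cells, 6 of 7 for GLI2 KO against WT with paclitaxel and 5 of 7 with DMSO, where 67.2%, 71.5%, 55.2% and 48.6% of all tested genes did not. An exact two-sided permutation test of 3 against 3 samples cannot go below 0.1, the value each pair without overlap gave. The comparisons share groups, so their values are not independent of each other.

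**Figure D2:**
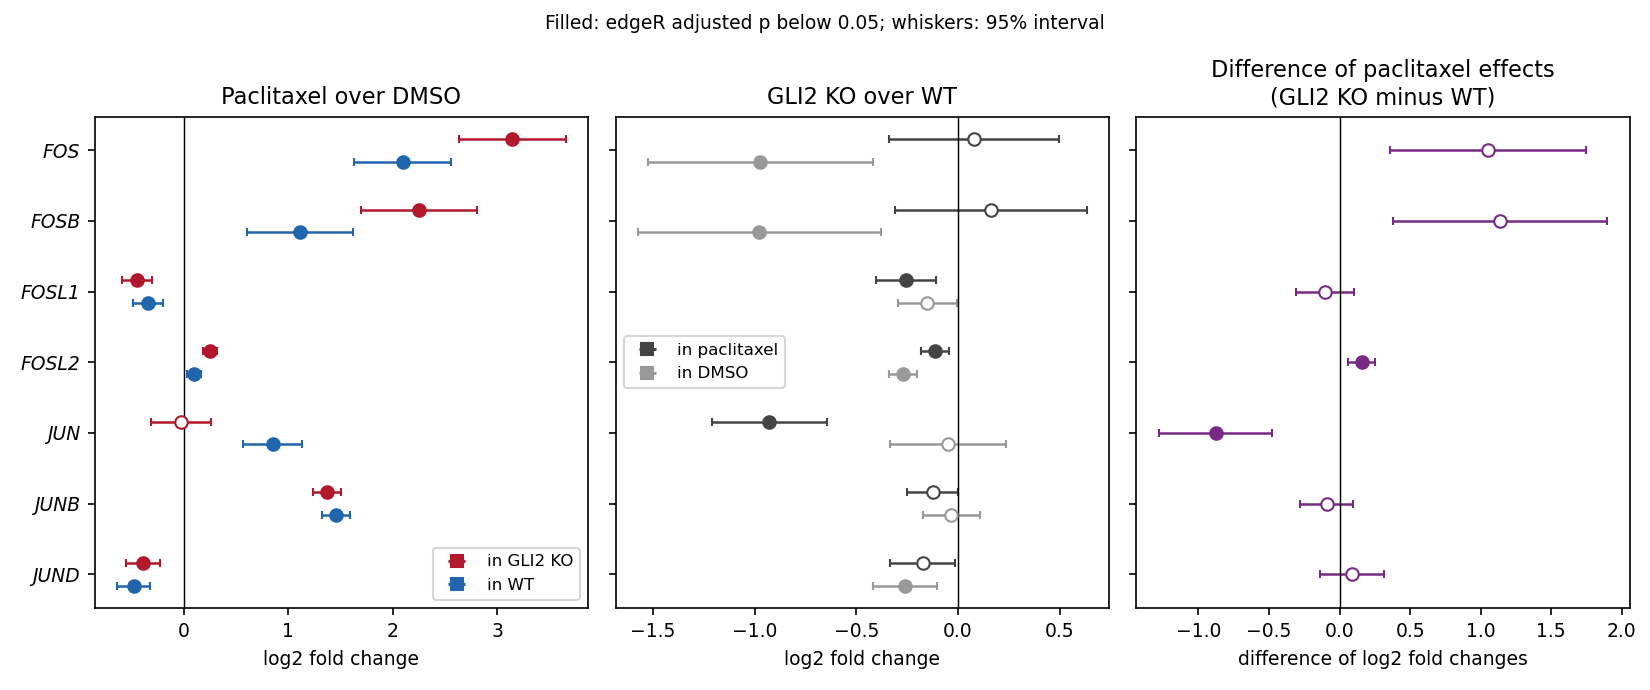
Log2 fold changes of the 7 members (rows) for paclitaxel over DMSO in each genotype, for GLI2 KO over WT in each treatment, and the difference of the paclitaxel effects (horizontal axes). Points are edgeR estimates over 3 samples a group, whiskers are 95% intervals and filled points have an adjusted p below 0.05. JUN is the member whose difference lies farthest below 0, at -0.88.

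Whether paclitaxel acted differently in GLI2 KO and WT cells was tested as the difference of the log2 fold changes, GLI2 KO minus WT. Of 7 members 1 passed above 0 (FOSL2) and 1 below 0 (JUN), where 13.5% of tested genes passed in either direction (6.56% above, 6.93% below). For JUN the difference was -0.88 ± 0.17 (edgeR adjusted p = 0.0131, 95% interval -1.28 to -0.48). Leaving out any library gave -1.01 to -0.79 and kept the call. For FOSL2 it was 0.16 ± 0.05 (edgeR adjusted p = 0.0276), the smaller effect, and it was lost, at 0.13 to 0.16, without GLI2 KO DMSO replicate 3, GLI2 KO paclitaxel replicate 2, WT DMSO replicate 1 or 3, or WT paclitaxel replicate 1 or 3. FOS and FOSB differed by more than FOSL2 but with wider errors: 1.05 ± 0.30 for FOS (edgeR adjusted p = 0.0572) and 1.14 ± 0.33 for FOSB (edgeR adjusted p = 0.0594). Both passed in DESeq2 (adjusted p = 0.00819 for FOS and 0.0222 for FOSB) and in limma-voom (0.00486 and 0.00249). With edgeR both passed without robust fitting (adjusted p = 0.00211 and 0.00294) and at a minimum count of 50 (0.0444 and 0.0409). Both also passed in edgeR without the 2 DMSO libraries that stood apart (1.01 for FOS, 0.0497, and 0.996 for FOSB, 4.21e-08). Those libraries, chosen after the data were seen, held the lowest FOS and FOSB levels of their groups. Leaving them out narrows the spread, so that call is not support. FOSL1 (-0.10 ± 0.09), JUNB (-0.09 ± 0.09) and JUND (0.09 ± 0.10) did not pass in edgeR, with 95% intervals of -0.31 to 0.10, -0.28 to 0.10 and -0.14 to 0.31. Without those 2 DMSO libraries FOSL1 passed at -0.21 (edgeR adjusted p = 0.00146).

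Per kilobase of exon, where levels of different genes can be compared, the make-up of the set shifted with paclitaxel. FOSL1 was the most abundant member in every group, with 41.9% of the summed level in GLI2 KO with paclitaxel against 55.7% in GLI2 KO with DMSO, and 39.5% in WT with paclitaxel against 55.2% in WT with DMSO. FOS took 7.44% in GLI2 KO with paclitaxel against 0.813% in GLI2 KO with DMSO, and 5.57% in WT with paclitaxel against 1.42% in WT with DMSO. FOSB stayed the rarest, at 1.14% or less in each group.

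The shares within the JUN family shifted as well. JUN made up 41.2% of the 3 JUN genes' level per kilobase in GLI2 KO with paclitaxel, against 46.0% in GLI2 KO with DMSO, and 54.5% in WT with paclitaxel against 43.4% in WT with DMSO. JUND was level with JUN in WT cells with DMSO, at 44.4% of the family. JUNB took 30.7% in GLI2 KO with paclitaxel against 13.2% in GLI2 KO with DMSO, and 23.4% in WT with paclitaxel against 12.2% in WT with DMSO. The summed JUN family level was 98.6 ± 3.15 CPM per kilobase in GLI2 KO with paclitaxel and 89.4 ± 10.5 in GLI2 KO with DMSO, and 141 ± 5.96 in WT with paclitaxel and 98.1 ± 7.91 in WT with DMSO (SD, n = 3 each). The FOS family sum was 135 ± 1.48 CPM per kilobase in GLI2 KO with paclitaxel and 150 ± 16.5 in GLI2 KO with DMSO, and 154 ± 3.37 in WT with paclitaxel and 170 ± 0.235 in WT with DMSO (SD, n = 3 each). With TMM scaling the mean FOS family sum was thus lower with paclitaxel although FOS and FOSB rose, and in GLI2 KO cells this difference was within the SD of the DMSO samples. With library totals the order of the means turned: 142 CPM per kilobase in GLI2 KO with paclitaxel and 140.1 in GLI2 KO with DMSO, and 163 in WT with paclitaxel and 162 in WT with DMSO.

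**Figure D3:**
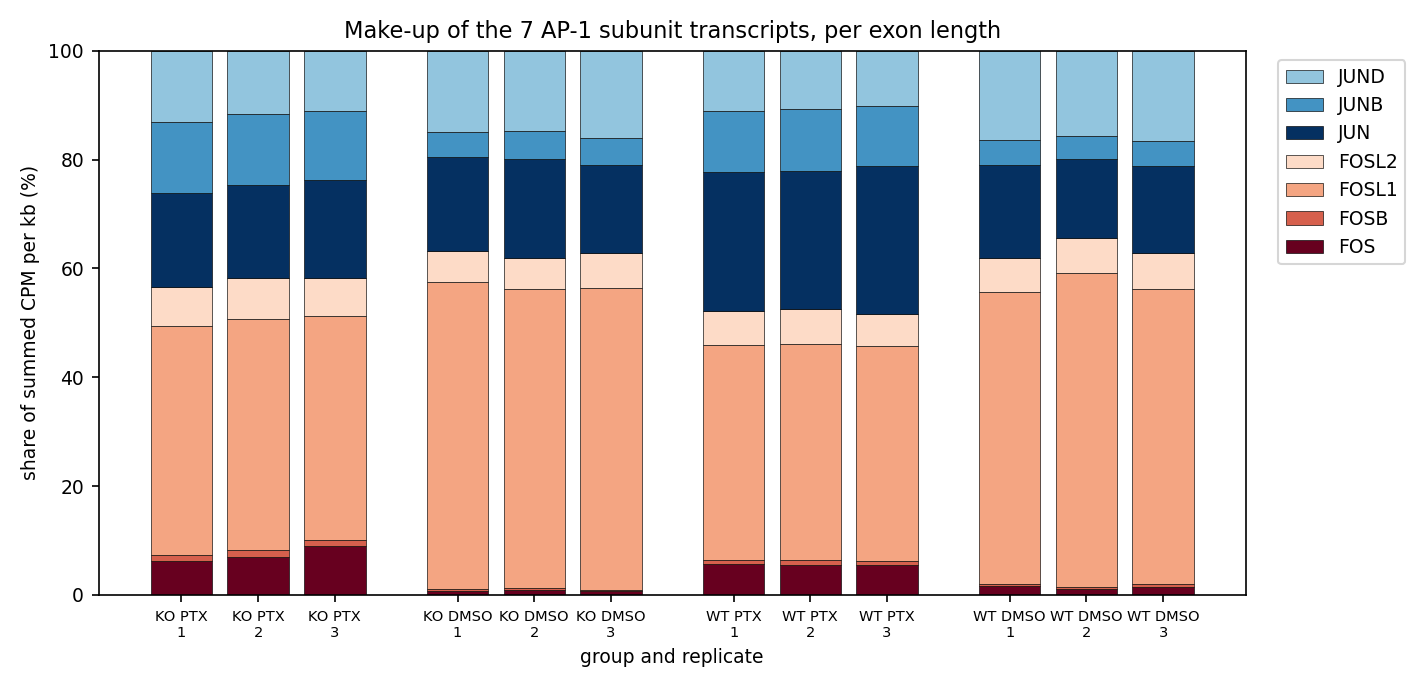
Share of each member in the summed level per kilobase of exon of the 7 AP-1 subunits (vertical axis, percent), with a bar for each of the 12 samples (horizontal axis, group and replicate). FOSL1 takes the largest share in every sample; FOS and JUNB take more with paclitaxel in both genotypes, and JUN takes most in the WT paclitaxel samples.

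The other genes of the pathway were described from 7 lists, by counts and medians only, to be read against the shares of all tested genes. With paclitaxel 33.0% of those rose and 32.2% fell in GLI2 KO cells, and 34.6% rose and 32.1% fell in WT cells. In GLI2 KO against WT cells 23.4% were higher and 22.2% lower with paclitaxel, and 22.0% and 19.6% with DMSO. Of 18 other immediate early genes, 14 rose and 2 fell with paclitaxel in GLI2 KO cells and 16 rose and 0 fell in WT cells, with median log2 fold changes of 1.04 and 1.17. EGR1, a zinc finger factor induced with FOS, rose by 4.42 ± 0.26 in GLI2 KO (630 CPM with paclitaxel, 29.4 with DMSO) and 3.56 ± 0.24 in WT cells (533 and 45.0 CPM), and EGR2 rose by 4.97 ± 0.21 and 4.01 ± 0.21. EGR4 had 3 or fewer counts in total in each DMSO group, and both medians were the same at 2 decimals with it at its bound of 3 counts. ARC, a synaptic immediate early gene, rose by 3.27 ± 0.11 in GLI2 KO and 3.08 ± 0.11 in WT cells. Between genotypes the list split, with 6 higher and 5 lower with paclitaxel and 4 and 4 with DMSO. BTG2, an antiproliferative gene, was lower in GLI2 KO than in WT cells under both treatments (-0.81 ± 0.12 and -1.29 ± 0.13).

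Other bZIP genes that dimerise with FOS or JUN proteins moved both ways. Of 13 tested, from a list of 14, 7 rose and 3 fell with paclitaxel in GLI2 KO cells and 7 rose and 4 fell in WT cells. ATF3, a stress-induced partner of JUN, rose by 2.69 ± 0.17 in GLI2 KO (65.7 CPM with paclitaxel, 10.2 with DMSO) and by 1.94 ± 0.16 in WT cells (48.1 and 12.5 CPM). MAFF, a small MAF protein, rose by 1.19 ± 0.07 in GLI2 KO and 1.07 ± 0.07 in WT cells. In GLI2 KO against WT cells 4 of the 13 were higher and 3 lower with paclitaxel, and 2 and 5 with DMSO. ATF2, the constitutive partner of JUN at its own promoter, was lower in GLI2 KO than in WT cells with paclitaxel (-0.44 ± 0.03) and with DMSO (-0.51 ± 0.03). ATF3 was higher in GLI2 KO than in WT cells with paclitaxel (0.45 ± 0.15).

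The upstream MAP kinase cascade fell at the transcript level: of 22 genes, 18 fell and 2 rose with paclitaxel in GLI2 KO cells (median -0.31), and 19 fell and 2 rose in WT cells (median -0.34). MAPK9, which encodes the JUN kinase JNK2, fell by 0.76 ± 0.03 on the log2 scale in GLI2 KO and by 0.55 ± 0.03 in WT cells. In GLI2 KO against WT cells 13 of the 22 were higher and 3 lower with paclitaxel and 11 and 3 with DMSO, with MAP2K6, a kinase of p38, at 1.30 ± 0.25 and 1.30 ± 0.22. Among 11 MAP kinase phosphatases, which end such signals, 5 rose and 2 fell in GLI2 KO and 6 rose and 1 fell in WT cells. DUSP2 rose by 3.16 ± 0.14 in GLI2 KO (8.23 CPM with paclitaxel, 0.929 with DMSO) and 2.10 ± 0.12 in WT cells (7.27 and 1.69 CPM). DUSP1 rose by 1.15 ± 0.18 in WT cells, with 0.44 ± 0.18 in GLI2 KO cells (not passed). DUSP4, at a higher level, had log2 fold changes of -0.54 ± 0.05 in GLI2 KO (411 and 599 CPM) and -0.45 ± 0.05 in WT cells (385 and 525 CPM).

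Factors that bind the FOS and JUN promoters moved both ways, with 3 of 13 higher and 6 lower with paclitaxel in GLI2 KO cells (median -0.05) and 2 and 5 in WT cells (median -0.06). CREB1, which binds the CREB/ATF element, had log2 fold changes of -0.27 ± 0.03 in GLI2 KO and -0.50 ± 0.03 in WT cells. MRTFB, a coactivator of serum response factor, had -0.48 ± 0.04 and -0.47 ± 0.04, and ELK3, a ternary complex factor, -0.33 ± 0.03 and -0.40 ± 0.03. Between genotypes 8 of these 13 were higher and 1 lower in GLI2 KO than in WT cells with paclitaxel, and 6 and 3 with DMSO. The myocyte enhancer factor gene MEF2C rose by 0.71 ± 0.08 in GLI2 KO and 0.75 ± 0.09 in WT cells, and was higher in GLI2 KO than in WT cells by 1.34 ± 0.08 with paclitaxel and 1.38 ± 0.09 with DMSO. Of 10 genes for turnover of FOS and JUN protein or mRNA, 2 rose and 4 fell in GLI2 KO and 3 rose and 5 fell in WT cells. Between genotypes 3 of these 10 were higher and 3 lower in GLI2 KO than in WT cells with paclitaxel, and 1 and 3 with DMSO. FBXW7, a ubiquitin ligase subunit that targets JUN protein, was lower in GLI2 KO than in WT cells by -1.14 ± 0.04 with paclitaxel and -0.92 ± 0.05 with DMSO. ZFP36, which destabilises AU-rich mRNAs and is itself an immediate early gene, rose by 0.61 ± 0.06 in GLI2 KO and 0.92 ± 0.06 in WT cells.

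Of 25 genes reported as AP-1 targets, 15 rose and 7 fell with paclitaxel in each genotype (medians 0.29 in GLI2 KO and 0.31 in WT cells). The falls lie near the share of all tested genes. The same 7 fell in both genotypes: HMGA1, PLAU, CCND1, AXL, TGFB1, PLAUR and IL11. PLAU had log2 fold changes of -0.99 ± 0.04 in GLI2 KO and -0.63 ± 0.04 in WT cells, with group means of 133 to 264 CPM. AXL had -0.52 ± 0.03 and -0.61 ± 0.03, with group means of 857 to 1362 CPM. The genes named below as rising stood at lower levels. The collagenase genes MMP13 and MMP1 rose in both genotypes at low levels. MMP13 rose by 2.46 ± 0.21 in GLI2 KO (2.06 CPM with paclitaxel, 0.374 with DMSO) and by 2.75 ± 0.31 in WT cells (0.645 and 0.0945 CPM). MMP1 rose by 2.06 ± 0.18 in GLI2 KO and 2.73 ± 0.33 in WT cells, and was higher in GLI2 KO than in WT cells by 2.47 ± 0.19 with paclitaxel and 3.14 ± 0.32 with DMSO. Between genotypes 11 of the 25 were higher and 7 lower in GLI2 KO than in WT cells with paclitaxel, and 13 and 6 with DMSO. The chemokine gene CXCL8 rose by 1.92 ± 0.44 in GLI2 KO cells, with 0.47 ± 0.38 in WT cells (not passed), and, with DMSO, was lower in GLI2 KO than in WT cells (-1.71 ± 0.45). The cytokine gene CSF2 rose by 0.82 ± 0.10 in GLI2 KO and 1.91 ± 0.11 in WT cells, and SPP1 (osteopontin) by 1.55 ± 0.14 and 1.82 ± 0.15. Except where said otherwise, each value named from the lists passed at an edgeR adjusted p below 0.05.

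**Figure D4:**
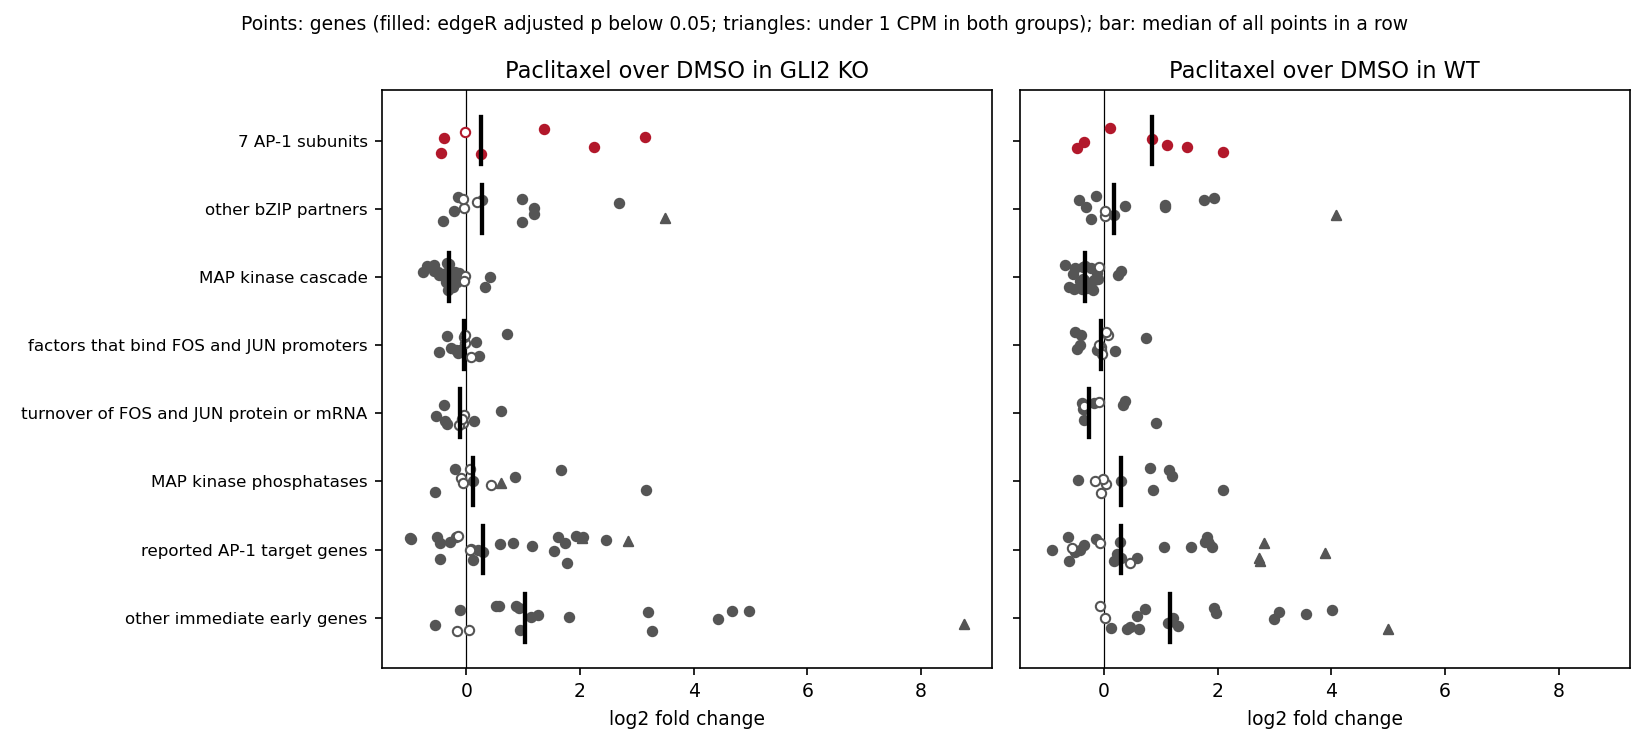
Log2 fold changes with paclitaxel over DMSO (horizontal axes) of the 7 AP-1 subunits and of the genes of 7 related lists (rows), in GLI2 KO cells on the left and in WT cells on the right. Each point is a gene, filled where the edgeR adjusted p is below 0.05, triangles have a mean under 1 CPM in both groups and bars are medians; the medians of the other immediate early genes lie at 1.04 and 1.17.

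The genes whose pattern over the 12 samples was most like a member's were found by the root mean square difference of their centred log2 levels, among 10766 genes. This is a description, since the samples share groups and libraries. ATF3 was closest to FOS (0.31), ahead of TXNIP (0.33) and AOC3 (0.36). PER2, a circadian repressor, was closest to FOSB (0.26), followed by LINC02577 (0.32) and KRT8P12 (0.33). For JUNB it was KDM6B, a histone demethylase (0.07), followed by CREBRF (0.12) and VGF (0.14). ZNF850 (0.15), ODC1, the first enzyme of polyamine synthesis (0.16), and THUMPD3-AS1 (0.16) were closest to JUN; ODC1 stood at 400 CPM in GLI2 KO with paclitaxel and 348 with DMSO, and at 600 CPM in WT with paclitaxel and 321 with DMSO. FOSL1 lay near INPP5B, ABHD3 and MAP3K21 (0.06 each), and JUND near ACADS (0.05), ECI2 (0.05) and ARHGAP19 (0.06). Among the members themselves FOSL1 and JUND were closest (0.09), while FOS and FOSB differed by 0.51. FOSL2 spanned under 0.5 over the group means and was given no such genes.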

How the data were processed

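Polyadenylated RNA of 12 samples (3 in each of 4 groups, taken from the titles) was analysed from the authors' deposited tables. The deposited counts are whole-number reads per gene, and the deposited normalized signal is those counts divided by 1 factor per sample (largest relative deviation 5.33e-15), so it added nothing and was not tested. Per the submitters' processing notes, the tools were STAR, Trim Galore 0.6.7 and DESeq2 1.36.0, and the build was hg38. No source used here gives the counting tool, the annotation or the use of strand. The number of sample columns not used was 0.

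Counts were tested with edgeR 4.0.16 (R 4.3.3; glmQLFit and glmQLFTest, robust) with TMM factors and filterByExpr at a minimum count of 10, which kept 87.7% of genes. The 12 samples were fitted together by group means, leaving 8 residual degrees of freedom, and p-values were adjusted by Benjamini-Hochberg over 21974 genes within each of 5 contrasts. The ± on the log2 scale was obtained by dividing a log2 fold change's size by the root of its F statistic. Tests are two-sided. Totals of 83230948 to 109018776 counts limit precision by counting error little for the members, whose intervals rest mainly on the spread between samples. Counting error weighs more for list genes at low counts, such as MMP1 and MMP13 in WT with DMSO (0.0932 and 0.0945 CPM). Lengths and coordinates come from GENCODE 29 on GRCh38 (union of exons per gene). Alternatives included DESeq2 1.42.0 and limma-voom (limma 3.58.1). The fit was run on simulated data in which few genes changed, equally many up and down. In the data most genes passed with paclitaxel, so that run cannot check the scaling or the share of genes called.

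The members and lists were chosen with earlier results of these data known. The genes named are all 7 members, GLI2 as the targeted gene, up to 3 genes per list and group comparison with the largest absolute log2 fold change past the threshold at 1 CPM or more in either group, and for each member the 3 most alike genes at 5 CPM or more, by log2(CPM + 0.5). HOOK2, EGR4, DUSP4 and the 7 AP-1 target genes that fell were named after their values were seen. A gene that this rule selects is not reported here.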

Additional observations from a re-analysis of the deposited data

Results flagged for a closer look

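The paclitaxel effect differed between the genotypes for 2 of the 7 members, by the test of the difference itself (edgeR, GLI2 KO minus WT). For JUN the difference was -0.88 ± 0.17 on the log2 scale (adjusted p = 0.0131): the effect was -0.03 in GLI2 KO and 0.85 in WT cells, and all 3 WT paclitaxel samples lay above the other 9. For FOSL2 it was 0.16 ± 0.05 (adjusted p = 0.0276), from effects of 0.26 in GLI2 KO and 0.10 in WT cells.
Of all tested genes 13.5% passed this test. The FOSL2 call was lost in 6 of the 12 fits that left out 1 library (adjusted p = 0.0513 to 0.105). The FOS and FOSB differences were larger, at 1.05 ± 0.30 and 1.14 ± 0.33, and did not pass in the main edgeR fit (adjusted p = 0.0572 and 0.0594). Both passed in DESeq2 and in limma-voom. With edgeR both passed without robust fitting (adjusted p = 0.00211 and 0.00294) and at a minimum count of 50 (0.0444 and 0.0409).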

How the results depend on the processing

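No paired fit was run, because the titles give no replicate number and no label says that neighbouring library numbers mark pairs. Library numbers ran from 1 to 6 in WT and from 7 to 12 in GLI2 KO cells, so an effect of that order cannot be told apart from genotype. Of the libraries that stood apart, GLI2 KO DMSO replicate 3 and GLI2 KO paclitaxel replicate 3 were the neighbours 11 and 12. WT DMSO replicate 2 was number 5. The part of this order in the results was not tested. Of the members' log2 fold changes, 278 kept direction and call under planned settings, 26 gained the call, 1 lost it and 3 turned sign without a call; leaving out 1 library gave 389, 11, 12 and 8. Upper-quartile factors and library totals moved the median of all genes with paclitaxel to 0.14 and 0.20 in GLI2 KO and to 0.17 and 0.19 in WT cells, against 0.02 and 0.03. With library totals, 3831 genes were lower with paclitaxel in GLI2 KO (7077 with TMM) and 4295 in WT cells (7047). JUN with paclitaxel in GLI2 KO was 0.10 with upper-quartile factors, 0.15 with library totals, 0.035 at a minimum count of 50, and -0.16 to 0.065 leaving out 1 library. GLI2 KO against WT, FOS with paclitaxel ranged from -0.076 to 0.18 leaving out 1 library, JUN with DMSO from -0.14 to 0.083 and JUNB with DMSO from -0.10 to 0.044. The causes were not tested.

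Members lower in GLI2 KO than in WT with paclitaxel numbered 5 with upper-quartile factors, a minimum count of 50, limma-voom, or only the groups compared (3 as reported; 2 to 5 leaving out 1 library), and 1 was higher with only the groups compared (0 as reported). With DMSO 2 to 5 were lower leaving out 1 library (4 as reported). For the difference of the paclitaxel effects 3 passed above 0 at a minimum count of 50, without robust fitting, in DESeq2 and in limma-voom (1 as reported; 0 to 3 leaving out 1 library), and 1 to 2 passed below 0 leaving out 1 library. Members not called can therefore not be read as unchanged.

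Alternatives chosen after seeing the data left out the 2 DMSO libraries that stood apart, or those and GLI2 KO paclitaxel replicate 3. Both gave 1 member higher and 5 lower in GLI2 KO than in WT with paclitaxel, and 3 above and 2 below 0 for the difference. FOS between genotypes with paclitaxel was -0.075 with 3 libraries left out, and JUN between genotypes with DMSO was 0.0051 with 3 and 0.0047 with 2 left out.

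With lengths of the longest coding transcript in place of the exon union, the FOS family took 61.6% in GLI2 KO with paclitaxel, 65.5% in GLI2 KO with DMSO, 56.0% in WT with paclitaxel and 66.3% in WT with DMSO (57.7%, 62.7%, 52.1% and 63.4% as computed above). The FOS share of its family was then 16.4%, 1.72%, 13.7% and 2.98% in the same order of groups, and the summed level was 257.03 CPM per kilobase in GLI2 KO with paclitaxel, 320.9 in WT with paclitaxel and 290.9 in WT with DMSO. With library totals those sums were 246.5, 313.2 and 255.4. The FOS family sum was 158 CPM per kilobase in GLI2 KO with paclitaxel, 169.5 in GLI2 KO with DMSO, 179.5 in WT with paclitaxel and 192.8 in WT with DMSO by coding transcript length, and 142, 140.1, 163 and 162 with library totals.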
